A study of Asparagus officinalis with 3 samples.

Results

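Of the 194 miRNAs listed for garden asparagus (Asparagus officinalis), 40 had no family, and 31 of these candidates are described here. They were chosen as the entries without a family other than 9 named candidates, and grouped by the unigene (assembled transcript) listed as their precursor. Of the 9 candidates left out, 3 (aof-miRn08, aof-miRn13 and aof-miRn14) come from the same stretches as members. Also left out were aof-miRn20, aof-miRn25, aof-miRn28 and aof-miRn33, listed in UN21911 like the member aof-miRn25*. Of these, aof-miRn33 matches aof-miRn25* at 18 bases. The values come from 1 female and 1 male library, each made from RNA of leaves, roots, stems and flowers of 3-year-old greenhouse plants of the cultivar "Grand", with several plants and all organs pooled. No strain, transgene or treatment separated the groups, and a pooled degradome library of both sexes was not used here. As there was 1 library per sex, differences between the sexes have no replicate check, sex and library cannot be told apart, and no p-value was computed. In such pools, fewer cells of a type and less small RNA per cell cannot be told apart either.

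A plant miRNA is cut by a Dicer-like enzyme from 1 arm of a hairpin transcript, loaded into an Argonaute protein and paired over nearly its whole length with a target RNA, which is then cleaved or held back from translation. Many plant miRNAs begin with U, the 5′ base that the main miRNA Argonaute of Arabidopsis, AGO1, prefers. Cleavage of a target falls opposite bases 10 and 11 of the miRNA. A candidate is a small RNA that lies in a foldable transcript but matched no named family, so its hairpin, its length and its pairing sites are what describe it.

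The 31 candidates came from few places. Grouped by precursor unigene, 16 lay in UN07381, and 5 of those 16 were also listed in UN09382. UN21248 and UN22735 held 3 each, UN41527, UN45561 and UN31232 held 2 each, and UN22494 and UN00358 held 1 each. The remaining one, aof-miRn25*, was listed in UN21911. Members of 1 precursor overlap in sequence, so they are not independent, and sums by precursor are given beside single values.

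The sequences the results turn on are printed 5′ to 3′ with the seed (bases 2 to 8) in capitals. In UN07381, UN21248, UN22735 and UN45561 the members are shifted or nested windows of 1 stretch, so that overlapping candidates can carry different seeds, while aof-miRn30 and aof-miRn31 of UN31232 share a start and a seed.
aof-miRn38 (UN22494): uUGCCUACuccgcccauucccc
aof-miRn15 (UN07381): cAGACGGUcggcgggcugaauc
aof-miRn07 (UN07381): aGACGGUCggcgggcugaauc
aof-miRn19 (UN07381): cCAGACGGucggcgggcugaauc
aof-miRn17 (UN07381): cCAGACGGucggcgggcugaa
aof-miRn12 (UN07381): aUUCCAGAcggucggcgggcu
aof-miRn27 (UN07381): gAAAUUCCagacggucggcgggcu
aof-miRn34 (UN21248): uGGUCGAUuguuuuugggaug
aof-miRn24 (UN21248): cGAUUGUUuuugggaugcgcu
aof-miRn22 (UN41527): cGAACCCUggucgauuguuuu
aof-miRn23 (UN41527): cGAACCCUggucgauuguuuuu
aof-miRn09 (UN45561): aGCGGGGUguucugauccauacaa
aof-miRn10 (UN45561): aUGCGAGCgggguguucugaucca
aof-miRn32 (UN22735): uGAUUAUGuaguggucccucc
aof-miRn37 (UN22735): uGUGAUUAuguaguggucccucca
aof-miRn30 (UN31232): uAAAUAGUcgggguugccaacc
aof-miRn31 (UN31232): uAAAUAGUcgggguuggcaacc
aof-miRn03 (UN00358): aAUAGAUGagaugagaugaguugu
aof-miRn25* (UN21911): gCGUGCAUggaaccaagcaug

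The 31 candidates carried 19 different seeds, of which 10 were shared by more than 1 member. The largest seed group, CAGACGG, held aof-miRn16, aof-miRn17, aof-miRn18 and aof-miRn19. None of the 19 seeds occurred in the 154 conserved miRNAs. Candidates are the entries that matched no named family, so this follows in part from how the lists were made.

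By length and first base the candidates were unlike the conserved list. Of the 31, 9 were 21 nt long (29.0%) and 6 were 24 nt long (19.4%). Of the 154 conserved miRNAs, 104 were 21 nt (67.5%) and 1 was 24 nt (0.649%). U was the first base in 8 candidates (25.8%) against 115 conserved miRNAs (74.7%), and A in 11 (35.5%) against 5 (3.25%). No member from UN07381 began with U, while 8 of the other 15 did. The median G and C content was 66.7% in the UN07381 members, 47.6% in the other members and 57.1% in the conserved miRNAs. These shares describe the lists, since the members overlap and the conserved list holds many near-identical variants, above all of miR166, its largest family.

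One label did not hold in the sequences. Aof-miRn25* was listed in UN21911, whose hairpin also holds the conserved aof-miR160d and the excluded aof-miRn28, so it does not lie outside conserved hairpins. The study marks it as a miRNA star, by its name that of the excluded aof-miRn25, also listed in UN21911. The precursor sequence listed for it was that of aof-miRn24, with which it shared no run longer than 6 bases. In the hairpin listed for aof-miRn28 it matched 19 of 20 bases on the arm opposite aof-miR160d, with the single substitution U13C (hairpin base first, counted from the 5′ end of aof-miRn25*). Its closest conserved miRNA was aof-miR160c, with 17 of 21 identical bases. The hairpin matched aof-miRn25* less than fully, and its values are kept apart from the other groups.

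The deposited values, called TPM, scale the reads of each small RNA sequence to its library and take no account of sequence length. Low values rose in even steps of 0.229 TPM (female) and 0.157 TPM (male). Of the values up to 60 TPM, 99.4% in each library were whole multiples within 0.0051 TPM, and aof-miRn25* was the 1 exception in either library. If 1 step is 1 read, the libraries were scaled to totals of 4373625 and 6374800 reads, and 5 TPM stands for 21.9 and 31.9 reads. That a step is a read was not shown: 21 values per library lay within 20 steps, too few for the reads to be rebuilt, and the totals are not the clean read numbers of the study. The 95% intervals of ratios below are exact (Clopper-Pearson) intervals on that footing. They cover counting error only, not the spread between plants or library preparations, and reads copied by PCR are not independent molecules.

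The members were scarce. They summed to 595 (female) and 610 (male) TPM, or 1.05% and 1.20% of the summed values of the 194 listed miRNAs. Both values were under 10 TPM in 15 of the 31 members (48.4%), against 54 of the 154 conserved miRNAs (35.1%). The median member had female and male values of 10.3 and 9.88 TPM. Aof-miRn38 alone made up 42.3% and 36.5% of the members' sums, and the 16 UN07381 members 37.7% and 44.4%.

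**Figure D1:**
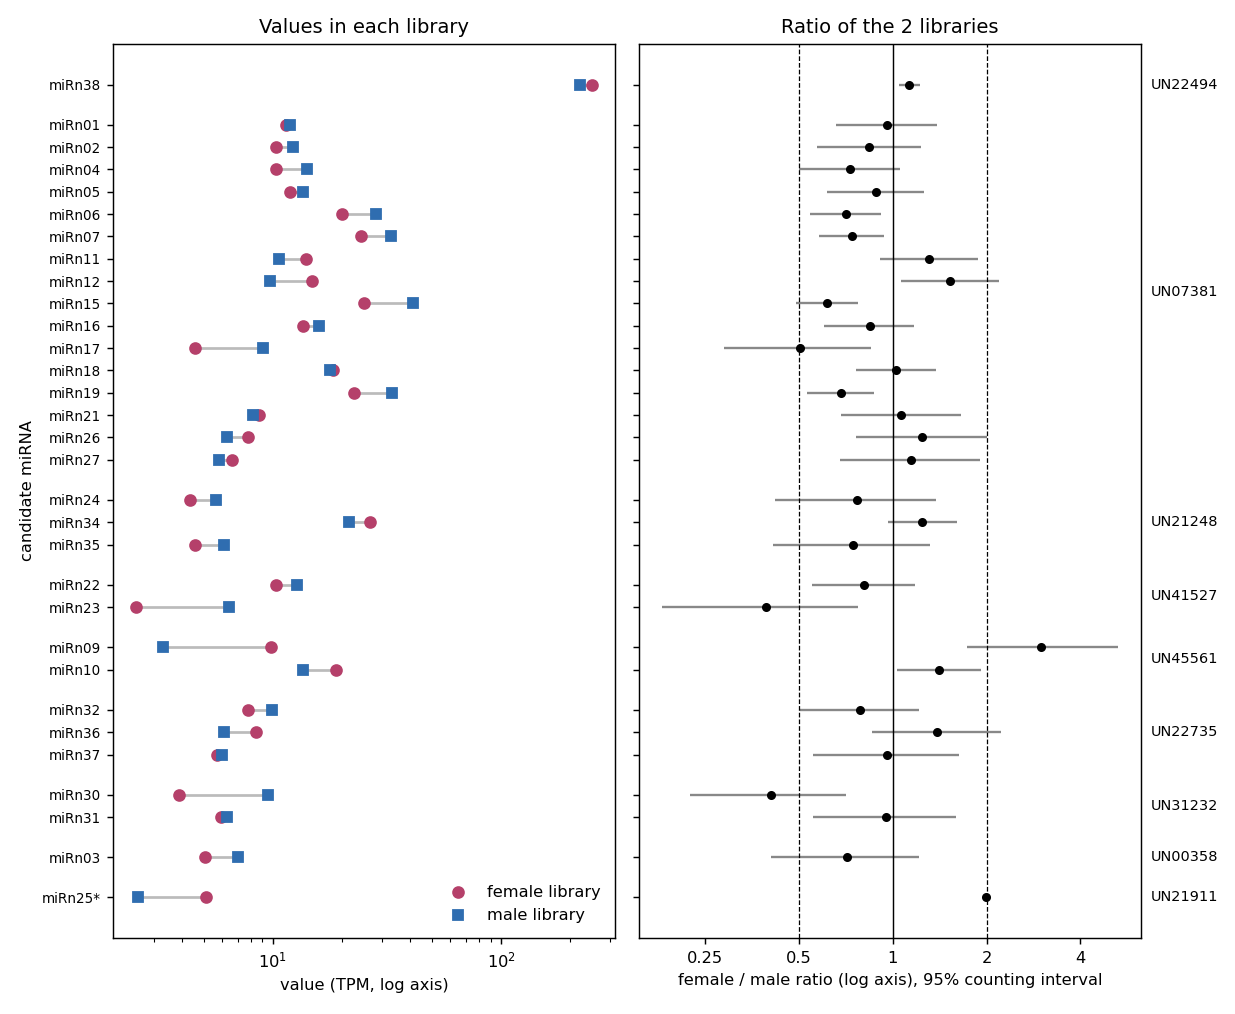
Left, the value of each of the 31 candidates in the female (circle) and male (square) library in TPM on a log axis. Right, the female to male ratio on a log axis with its 95% counting interval (none for aof-miRn25*), where the solid line marks 1, the dashed lines mark 0.5 and 2, and precursor unigenes stand at the right edge. Aof-miRn38 stands apart with 251.74 and 222.75 TPM, and aof-miRn09, aof-miRn23 and aof-miRn30 lie outside the dashed lines.

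Between the libraries, most members differed little. Over 2-fold apart were 3 of the 31 members (9.68%), 1 higher in the female and 2 higher in the male library. Over all 194 listed miRNAs the same rule took 30.9%, with 18% higher in the female and 12.9% higher in the male library. In the class with a higher value of 10 to 50 TPM, 0 of 15 members and 18 of 57 conserved miRNAs (31.6%) were over 2-fold apart. With the higher value under 10 TPM, the counts were 3 of 15 members and 22 of 54 conserved miRNAs. The list holds sequences that reached 5 TPM in either library. Each of the 3 members over 2-fold apart reached it only in its higher library. Their lower values were 3.29 (aof-miRn09), 2.52 (aof-miRn23) and 3.89 TPM (aof-miRn30). The counting intervals take no account of this limit. Entries are not independent in either list, as members overlap and the conserved list holds many miR166 variants.

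The log2 female to male ratios of the members ran from -1.35 to 1.58 with a median of -0.18. Those of all listed miRNAs with both values above 0 ran from -5.06 to 4.56 with a median of 0.18. The female value was the higher one in 12 members and the male value in 19, against 112 and 82 of all listed miRNAs. Of these, UN07381, whose members overlap, held 6 and 10. The summed values of all members stood at a female to male ratio of 0.975 (0.928 to 1.02).

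**Figure D2:**
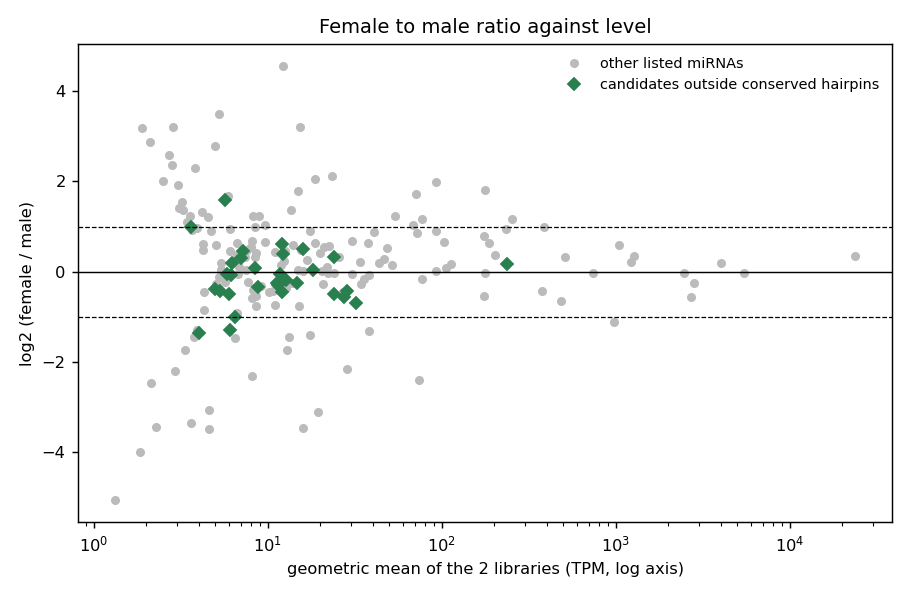
The log2 of the female to male ratio (vertical axis) against the geometric mean of both libraries in TPM (horizontal log axis) for the 31 candidates (diamonds) and the other listed miRNAs with both values above 0 (circles). The candidates lie between -1.35 and 1.58, with 3 of them outside the dashed lines at 1 and -1.

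The most abundant member was aof-miRn38, the only one listed in UN22494. It had female and male values of 251.74 and 222.75 TPM, a ratio of 1.13 (1.04 to 1.22). That ratio was also the median of all listed miRNAs. By the sum of both libraries the next member, aof-miRn15, had 25.15 and 40.94 TPM.

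The precursor of aof-miRn38 is a hairpin of 90 nt, printed with the candidate in capitals to show its place at the 3′ end.
UN22494: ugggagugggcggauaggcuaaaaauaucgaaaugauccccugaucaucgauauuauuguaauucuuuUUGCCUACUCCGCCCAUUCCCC
In the fold computed by RNAfold, 19 of the 22 bases of aof-miRn38 were paired. The folding energy was -45 kcal/mol, and the MFEI (folding energy set against both length and G and C content) was 1.13. Over 84 listed precursors of conserved miRNAs, many of them taken from the rice genome, the median MFEI was 0.946, with a range of 0.705 to 1.24.

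Aof-miRn38 was also the candidate closest to a conserved miRNA after aof-miRn25*. It matched aof-miR482, which is 20 nt long, at 15 of 20 positions, with 8 in a row, and the excluded aof-miRn39 at 15 of 22. Against aof-miRn39, the substitutions were U3G, A6U, U8C, G9U, U12G, G21C and G22C (the aof-miRn39 base first, counted from the 5′ end). Aof-miR482, whose family in other plants pairs with transcripts of NBS-LRR disease resistance genes, had female and male values of 11.2 and 14.4 TPM. The 29 members other than aof-miRn38 and aof-miRn25* matched their closest conserved miRNA at 9 to 13 positions. No target row was listed for aof-miRn38.

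UN07381 held the largest group. Its 16 members were windows of 20 to 24 nt in 1 stretch of 30 nt, printed in capitals in the listed precursor of aof-miRn01 in UN09382 (183 nt, where 24 of the 30 bases fall) and in full as the stretch itself.
UN07381 stretch: cgaaauuccagacggucggcgggcugaauc
UN09382: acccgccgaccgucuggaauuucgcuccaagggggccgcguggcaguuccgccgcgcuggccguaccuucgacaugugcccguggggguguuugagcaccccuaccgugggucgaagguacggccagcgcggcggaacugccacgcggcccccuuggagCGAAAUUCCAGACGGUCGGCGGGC
The windows began at 8 different bases and ended at 6. The precursors were nearly perfect inverted repeats. The longest unbroken run of base pairs was 68 in UN07381 and 72 in UN09382. Over the 84 conserved precursors the longest run was 17 base pairs and the median was 10. Local alignment of the longest precursors of UN07381 and UN09382 gave 181 identical of 208 aligned positions.

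The UN07381 members summed to 225 (female) and 271 (male) TPM, a ratio of 0.828 (0.765 to 0.896). None of the 16 was over 2-fold apart. By the sum of both libraries the most abundant were aof-miRn15 (25.15 and 40.94 TPM), aof-miRn07 (24.46 and 33.1 TPM) and aof-miRn19 (22.64 and 33.26 TPM), all with the male value higher. By the same sum aof-miRn27 was the lowest, with 6.63 and 5.8 TPM, although aof-miRn17 was lower in the female library. Aof-miRn17 lay just inside the threshold with 4.57 and 9.1 TPM, and was singled out after its values were seen.

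No single window led the group. Of the summed female values 29.7% were in 22-nt members, 24.1% in 21-nt members and 21.2% in 20-nt members. In the male library these shares were 31.1%, 24.4% and 20.3%. Among the members the most frequent start, at base 8 of the stretch, held 26.3% of the female and 28.1% of the male sum. The excluded aof-miRn13 and aof-miRn14 both start at base 9 and are left out of these shares, so this order holds for the members only. The most frequent end, at base 30, held 32.2% and 39.6%.

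The windows fell into an upstream and a downstream set, a division made after the values were seen. In the upstream set, 9 members started at bases 1 to 5 and ended at base 24 or 25. They summed to 95.8 (female) and 92.4 (male) TPM, a ratio of 1.04 (0.913 to 1.18), with the female value higher in 5 and the male value in 4. By start, the upstream ratios were 1.06 at base 1, 1.19 at base 2, 0.899 at base 3, 0.803 at base 4 and 1.41 at base 5. In the downstream set, 7 members started at bases 8 to 10 and ended at bases 27 to 30. They summed to 129 (female) and 179 (male) TPM, a ratio of 0.720 (0.650 to 0.798), and the male value was higher in 6 of the 7. The single ratios of the sets overlapped, with 0.729 to 1.53 upstream and 0.502 to 1.02 downstream. Aof-miRn12 had the highest ratio of the group with 14.86 and 9.73 TPM, or 1.53 (1.06 to 2.20).

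The excluded aof-miRn13 and aof-miRn14 lie in the same stretch, starting at base 9. Aof-miRn13 had female and male values of 9.15 and 12.39 TPM. Aof-miRn14 had 23.32 and 31.69 TPM. Their ratios, 0.738 and 0.736, lay within the ranges of both sets.

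**Figure D3:**
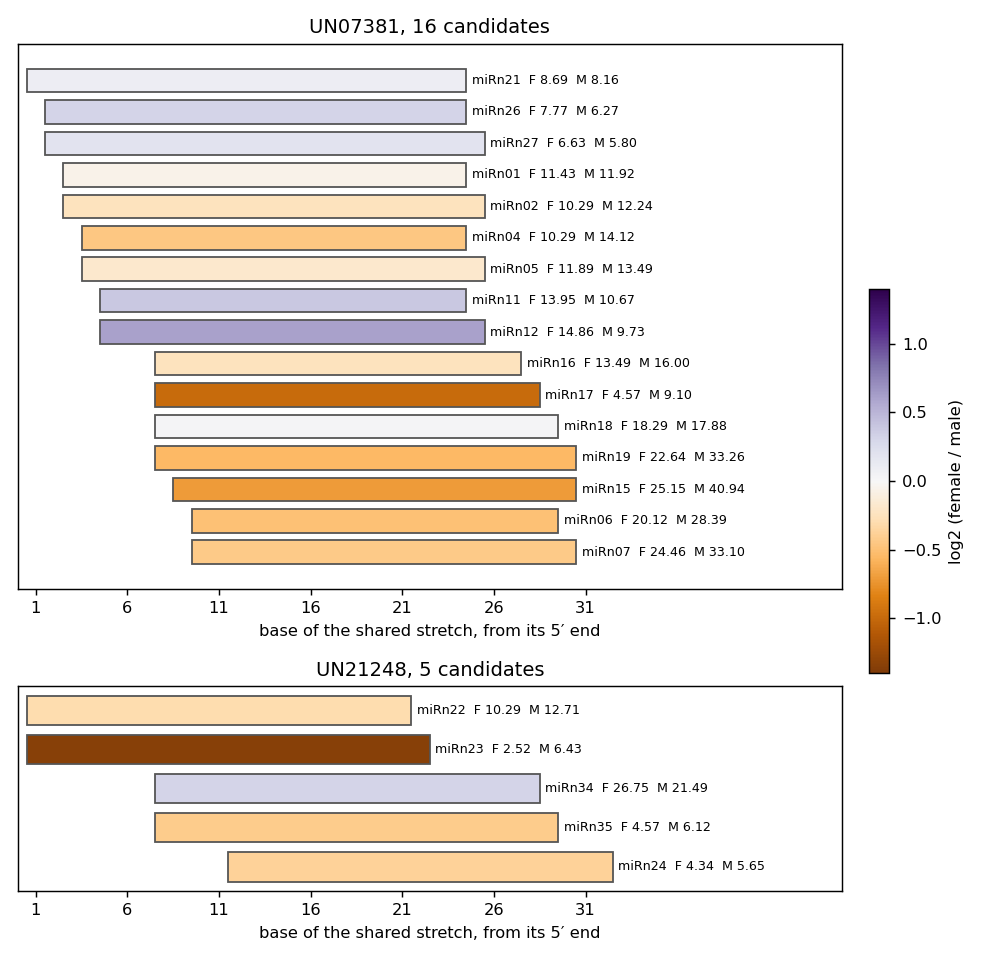
Each bar is 1 candidate, drawn over the bases it covers in the stretch shared by its group (horizontal axis, base counted from the 5′ end), for the 16 members of UN07381 and for 5 members found in UN21248. F and M give the female and male value in TPM, and the colour gives the log2 of the female to male ratio. The bars of UN07381 that end at base 27 or later have ratios of 0.502 to 1.02.

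Members listed in UN21248 and UN41527 came from 1 stretch as well. Aof-miRn22 and aof-miRn23, listed in UN41527, were found unchanged in the UN21248 precursor, where all 5 cover 32 bases, printed in capitals.
UN21248: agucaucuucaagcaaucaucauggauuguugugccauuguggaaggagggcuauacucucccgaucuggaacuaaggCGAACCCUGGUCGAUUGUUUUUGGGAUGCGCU
The precursors of the pair aligned over 100 positions with 89 identical. These folds were weak beside those of the other members. The MFEI was 0.613 to 0.627 in UN21248 and 0.664 in UN41527, under the 0.705 that was the lowest of the conserved precursors. Only 11 bases of aof-miRn22 and of aof-miRn23 were paired in UN41527.

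Aof-miRn34 was the most abundant of the 5, with female and male values of 26.75 and 21.49 TPM. Aof-miRn35, which is 1 base longer at the 3′ end, had 4.57 and 6.12 TPM. Aof-miRn22 had 10.29 and 12.71 TPM. Aof-miRn23, which extends aof-miRn22 by 1 U, had 2.52 and 6.43 TPM and was 2.55 times higher in the male library (1.29 to 5.52, from 11 and 41 steps). Aof-miRn24 had 4.34 and 5.65 TPM. Thus 4 of the 5 had the higher value in the male library, and the most abundant one in the female library.

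The pair of 22-nt members in this stretch summed to 7.09 (female) and 12.6 (male) TPM, a ratio of 0.565 (0.361 to 0.865). That pair joins aof-miRn23, already over 2-fold apart, with aof-miRn35, which alone had a ratio of 0.747 (0.413 to 1.31). The 3 members of 21 nt summed to 41.4 (female) and 39.9 (male) TPM, a ratio of 1.04 (0.854 to 1.26). A link between length and ratio was not tested. All 5 together stood at 48.5 and 52.4 TPM, with a ratio of 0.925 (0.775 to 1.10), an interval that holds 1.

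UN45561 had the highest female to male ratio of all precursor sums other than the single aof-miRn25*. Its members were both 24 nt long and lay on the 5′ arm, where aof-miRn10 starts 5 bases before aof-miRn09. The precursor is printed with the bases covered by either in capitals.
UN45561: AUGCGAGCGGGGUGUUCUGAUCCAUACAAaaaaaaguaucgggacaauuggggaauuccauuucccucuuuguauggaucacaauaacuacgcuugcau
Aof-miRn09 had female and male values of 9.83 and 3.29 TPM, a ratio of 2.99 (1.73 to 5.29). Aof-miRn10 had 18.98 and 13.49 TPM, a ratio of 1.41 (1.03 to 1.92). Summed, the ratio was 1.72 (1.32 to 2.24). The excluded aof-miRn08, which starts at the same base as aof-miRn09 and is 3 bases shorter, had 5.03 and 1.88 TPM, a ratio of 2.68. In the folds of this precursor, 22 of the 24 bases of either member were paired.

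Aof-miRn30 and aof-miRn31 are 22-nt sequences that differ by the single substitution G17C (aof-miRn31 base first, counted from the 5′ end). Aof-miRn30 had female and male values of 3.89 and 9.57 TPM and was 2.46 times higher in the male library (1.42 to 4.50, from 17 and 61 steps). Aof-miRn31 had 5.94 and 6.27 TPM, a ratio of 0.947 (0.555 to 1.59). The shared seed AAAUAGU therefore stood at 9.83 and 15.8 TPM. The intervals of both ratios overlap.

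The precursors of aof-miRn30 and aof-miRn31 are inverted repeats read from both strands. The longer one, in UN31232, is printed with aof-miRn31 in capitals, and the one in UN42854 shows the same candidate on the 3′ arm.
UN31232: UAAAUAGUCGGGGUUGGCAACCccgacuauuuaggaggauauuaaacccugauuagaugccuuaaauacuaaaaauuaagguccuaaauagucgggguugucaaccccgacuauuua
UN42854: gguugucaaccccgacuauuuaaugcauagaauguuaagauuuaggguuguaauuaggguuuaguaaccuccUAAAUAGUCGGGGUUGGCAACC
All 22 bases of aof-miRn31 were paired in both folds, and the longest unbroken run was 35 base pairs in UN31232 and 22 in UN42854. The precursor listed for aof-miRn30 held 21 of its 22 bases, since it ends 1 base short.

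UN22735 gave 3 nested candidates on the 3′ arm. Aof-miRn32 had female and male values of 7.77 and 9.88 TPM, aof-miRn36 had 8.46 and 6.12 TPM, and aof-miRn37 had 5.72 and 5.96 TPM. Their sums, 21.95 and 21.96 TPM, gave a ratio of 0.9995 (0.763 to 1.31). Of the bases of each, 18 to 21 were paired.

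The last members were low in both libraries. Aof-miRn03, in UN00358, had female and male values of 5.03 and 7.06 TPM, a ratio of 0.712 (0.408 to 1.21). Its MFEI of 1.98 was the highest of the members, in a precursor with 25.7% G and C. Aof-miRn25* had 5.11 and 2.56 TPM, a ratio of 1.996, just under the 2-fold threshold. No interval is given for it, since both values lie off the steps that the other values up to 60 TPM follow. The closest conserved miRNA to it, aof-miR160c, had 5.72 and 0.78 TPM. The excluded aof-miRn33, which matches aof-miRn25* at 18 bases, had 13.72 and 5.8 TPM, a ratio of 2.37.

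Targets were listed as alignments of each miRNA to unigenes with a score. A penalty of 1 for a mismatch, 0.5 for a G-U pair and 2 for a gap gave the listed score in all 463 rows, so a lower score stands for closer pairing. These rows carry no cleavage data, and a listed pair is a match in sequence. From its degradome library the study reported targets of some candidates, aof-miRn06 and aof-miRn17 among them, which are not described here. The members held 181 of the 463 rows, from 29 members and with 44 different unigenes. After overlapping sites were merged, 58 sites were left. Aof-miRn38 had no row, and aof-miRn25* has no identifier by which rows could be found.

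Counted by row, with rows on own precursors included, pairing was closer than in the conserved rows, and annotation scarcer. The rows are not independent, since 134 of the 181 come from the overlapping members of UN07381. In 27 member rows the target was a precursor of the candidate's own group. Such pairing follows from the inverted repeat, and part of these rows are among the 66 counted next. A score of 1 or less was listed for 66 member rows (36.5%) and for 39 of 253 conserved rows (15.4%). Bases 10 and 11 were both paired without a G-U in 176 member rows (97.2%) and 222 conserved rows (87.7%). A protein match was given for 11 member rows (6.08%), in 5 unigenes, and for 171 conserved rows (67.6%). None of the members' 44 target unigenes was among the 147 listed for conserved miRNAs. Some were shared with the candidates left out, as rows outside the members held 163 unigenes and all rows together 194. The share to be expected between unrelated miRNAs was not worked out, so the lack of overlap is not read as a trait of the members.

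**Figure D4:**
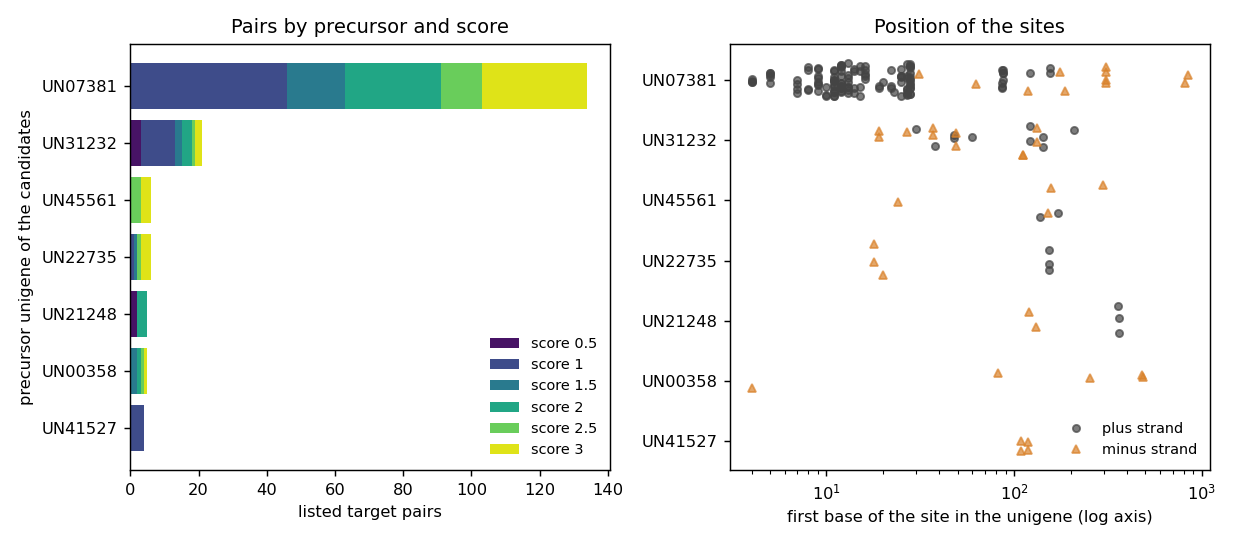
Left, the number of listed target pairs for the candidates of each precursor unigene, with colours for the score. Right, the first base of each pairing site in its unigene (log axis), with circles for the plus and triangles for the minus strand, and points spread vertically for sight only. UN07381 holds 134 of the 181 pairs, of which 113 begin within the first 60 bases.

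The 16 UN07381 members held 134 rows with 27 unigenes, which merged to 31 sites. Among these rows 113 (84.3%) had a site that began within the first 60 bases of the unigene, and 112 of those 113 were on the plus strand. Of the 31 merged sites, 20 began there, 19 of them on the plus strand. In the conserved rows, which were not merged, 31 of 253 (12.3%) began within the first 60 bases. UN36514 was listed for 13 of the 16 members and UN43326 for 12. UN28917 was listed for 11 members, and UN09382 and UN26235 for 9 each. The site in UN36514 for aof-miRn15 and that for aof-miRn04 overlap, and are printed with the unpaired base in capitals.
UN36514 site of aof-miRn15: gauucagcccgccgaccguAug
UN36514 site of aof-miRn04: gcccgccgaccguAuggaauu
Both had a score of 1 and the same unpaired A, so rows of different members describe 1 place.

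In 14 rows the UN07381 members paired with UN07381 or UN09382 themselves. UN09382 was listed for 9 members at scores of 1 to 2 and UN07381 for 5 members at 3. The sites lie at bases 27 to 51 of UN09382 and 25 to 49 of UN07381, all on the plus strand. They fall in the arm opposite the candidates, so this pairing is that of the hairpin stem.

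All 5 annotated target unigenes belonged to UN07381 members. UN07392, matched to the beta subunit of ATP synthase from Medicago truncatula, the catalytic subunit of the enzyme, was listed for aof-miRn06, aof-miRn16, aof-miRn17 and aof-miRn18 at scores of 1.5 to 3. Aof-miRn16 alone was listed for the others, all at 2.5. These were UN09219 and UN06905, matched to a repetitive proline-rich cell wall protein, UN21112, matched to early nodulin-75, another proline-rich protein, and UN37872, matched to a hypothetical protein of the fungus Gaeumannomyces graminis. In UN09219, UN06905 and UN37872 aof-miRn16 had 2 sites each. The first site in UN09219 is printed with mismatched and G-U bases in capitals.
UN09219 site of aof-miRn16: ucGgcccgccgGUcgucAgg
Aof-miRn16 had female and male values of 13.49 and 16 TPM, a ratio of 0.843 (0.601 to 1.17).

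Aof-miRn30 and aof-miRn31 held 21 rows with 5 unigenes, and 13 of the 21 were with UN31232 and UN42854, their own precursors. Sites were listed on both strands of UN31232, UN42854, UN42729 and UN47562. The lowest score was 0.5. The site of aof-miRn31 at that score in UN31232 is printed with the G-U base in capitals, and lies in the arm opposite the candidate.
UN31232 site of aof-miRn31: gguugUcaaccccgacuauuua

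The members of UN21248 and UN41527 shared targets across their groups. UN03648 and UN32754 were each listed for aof-miRn22, aof-miRn23 and aof-miRn24, and were the only target unigenes of members from more than 1 precursor. Aof-miRn24 paired with both at 0.5, and aof-miRn22 and aof-miRn23 at 1. The sites in UN03648 are printed with the mismatch or G-U base in capitals.
UN03648 site of aof-miRn24: agUgcaucccaaaaacaaucg
UN03648 site of aof-miRn22: aaaacaaucgaccaggAuucg
Together the sites span bases 119 to 150 of the minus strand of UN03648, which is 1 stretch complementary to the one shared by the candidates. UN07708 was listed for aof-miRn24, aof-miRn34 and aof-miRn35 at a score of 2.

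The other groups had few rows. The 3 members of UN22735 were listed for UN51068 at scores of 1 to 2.5 and for UN30573 at 3. Aof-miRn09 and aof-miRn10 shared UN25708 at 2.5, and their remaining 4 unigenes, UN00802, UN25972, UN35700 and UN51222, were listed for 1 member each. Aof-miRn03 was listed for UN46935 at 2 and for UN22001 in 4 rows, the closest at 1.5. None of these unigenes had a protein match.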

How the data were processed

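Small RNA of 1 female and 1 male library was sequenced by the authors, who trimmed adapters and discarded low-quality reads, reads that were too short and structural RNAs. The deposited values are RPM, which the authors call TPM, and the list holds sequences of 20 to 24 nt that reached 5 TPM in either library. The deposited target table gives a score for each alignment to asparagus unigenes, and the file does not name the program (the study names psRNATarget for its predictions against unigenes from RNA-seq, and it is not certain that these rows are those). No column of the authors' own comparisons was used. Precursor sequences were read from the supplementary tables of the study (sequences and unigene names only).

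Ratios were taken without a pseudocount, and members over 2-fold apart were counted beside all 194 listed miRNAs. With 1 library per sex, no test of the sexes was run. Library totals were searched for steps in values up to 60 TPM. Intervals are exact at 95%. Precursors were folded with RNAfold 2.7.2, the MFEI was the folding energy per 100 nt over the G and C percentage, and sequences were aligned with biopython 1.88. Likeness is the count of identical bases without gaps. The step search, the calls and the intervals were tested on simulated data. Python 3.11.15 with numpy 2.4.6 and scipy 1.17.1 was used.

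All members are accounted for by precursor. Values are given for every member of groups of at most 3, and in larger groups for the 3 most abundant, every member over 2-fold apart and the lowest. Outside this rule, values are given for aof-miRn12 (highest ratio in UN07381), aof-miRn16 (annotated targets) and aof-miRn17 (just inside the threshold). Aof-miRn12 and aof-miRn17 were picked by their values. The members, lists and rules were chosen with earlier results of these data known. As alternatives, a pseudocount of 1 or 5 TPM was added, 10 TPM was required, and the others were rescaling by the median ratio or the summed values, a 3-fold threshold, leaving out members, and closer target pairs.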

Additional observations from a re-analysis of the deposited data

How the results depend on the processing

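The 3 members over 2-fold apart remained so with a pseudocount of 1 TPM, and became 0 with a pseudocount of 5 TPM, 0 when 10 TPM was required in either library and 0 at a 3-fold threshold. Rescaling by the median ratio (0.18 on the log2 scale) or by the summed values (0.16) gave 4, with aof-miRn17 added. The log2 ratio of the members' sums, -0.04, moved to -0.21 and -0.20 under these rescalings, to -0.17 without aof-miRn38 and to 0.13 without the members of UN07381 and UN09382. Without aof-miRn25* it was -0.04. The log2 ratio of UN07381 was -0.27 and became -0.45 and -0.43 under the rescalings, and that of UN21248 went from 0.10 to -0.08 and -0.06, within its counting interval. Of the 181 target pairs, 88 had a score in the lower part of the range (up to 1.75), and 44 distinct unigenes were listed. An exact binomial test on rebuilt reads had been planned but was not run: it would compare reads of 2 libraries, not the sexes, and counting intervals are given instead. No paired analysis was possible because each sex has 1 library and no test was made. Depth limits the lowest members most, down to 11 steps for aof-miRn23 in the female library.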
